A study of Rattus norvegicus with 15 samples.

Results

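Protein kinase C is a family of serine/threonine kinases that carry signals from the lipid messenger diacylglycerol. This report describes the 6 isoform genes Prkca, Prkcb, Prkcd, Prkce, Prkch and Prkcz in neurons of the rat substantia nigra pars compacta (SNc) and ventral tegmental area (VTA). Their members are all probe sets, the groups of short probes that each give 1 signal, to which the platform annotation gives 1 of these 6 symbols. There were 14 such probe sets among 8740 non-control probe sets on the array, and all 6 symbols, of 4736 genes with a symbol of their own, had at least 1. The genes were proposed with the difference between SNc and VTA in Prkcd already known. Signals and differences of the isoforms are therefore given as a description, with no p-value, and p-values below are of other genes. The lists of those other genes were also chosen with earlier results of these data known. Where isoform probe sets past the threshold of the fit are counted, the count describes the choice and is no evidence for it.

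Neurons were cut from the rat midbrain by laser capture, and total RNA of each capture was measured on an Affymetrix rat array, with 8 SNc arrays and 7 VTA arrays. The labels name no treatment, strain, age or sex, and do not say how many animals gave the captures or how neurons were recognised. The p-values below thus measure the spread between arrays, which may be technical in part. The title names Parkinson's disease, a disorder that takes dopamine neurons of SNc more than those of VTA.

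Binding of a ligand to a Gq-coupled receptor activates phospholipase C, which splits a membrane lipid into diacylglycerol and inositol trisphosphate, a messenger that releases calcium. Conventional isoforms, here Prkca and Prkcb, respond to calcium and diacylglycerol, the isoforms Prkcd, Prkce and Prkch respond to diacylglycerol without calcium, and the atypical Prkcz responds to neither. In dopamine neurons the kinases are known to phosphorylate the dopamine transporter and tyrosine hydroxylase, and in rat dopamine cell lines a caspase cuts the Prkcd protein after exposure to toxins.

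Of the 6 isoforms, Prkcd was the one whose signals in SNc and VTA lay apart. RefSeq promoter sequences of assembly GRCr8 were found for 4 isoforms, Prkca, Prkcd, Prkce and Prkcz. Those of Prkcd and of Prkcz, the isoform next to it in signal, are shown from 250 bases before the start to 50 after it, with GC boxes (GGGCGG, on either strand) in capitals. The Prkcd sequence is chr16:5805790-5806089 on the minus strand and the Prkcz sequence is chr5:171212625-171212924 on the minus strand. The Prkcd window lies wholly inside the annotated gene, chr16:5775681-5806122. The Prkcz window runs past the upstream end of its gene, at 171212694, so the 2 windows are not placed alike.
Prkcd: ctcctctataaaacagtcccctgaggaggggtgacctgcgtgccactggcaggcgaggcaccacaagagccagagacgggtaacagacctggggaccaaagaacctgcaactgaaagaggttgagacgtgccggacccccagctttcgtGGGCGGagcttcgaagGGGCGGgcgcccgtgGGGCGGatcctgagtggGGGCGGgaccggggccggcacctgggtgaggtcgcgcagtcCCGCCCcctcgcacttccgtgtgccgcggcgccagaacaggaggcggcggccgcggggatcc
Prkcz: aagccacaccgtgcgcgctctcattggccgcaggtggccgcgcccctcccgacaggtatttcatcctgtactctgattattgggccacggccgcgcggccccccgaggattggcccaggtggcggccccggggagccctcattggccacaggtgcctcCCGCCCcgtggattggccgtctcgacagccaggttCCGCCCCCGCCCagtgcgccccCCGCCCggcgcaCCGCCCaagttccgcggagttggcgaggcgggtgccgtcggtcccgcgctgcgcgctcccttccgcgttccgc
Both sequences held 5 GC boxes, and their GC content was 69% for Prkcd and 73.3% for Prkcz, against a median of 51.7% over 33469 promoters of the same length. A GC box was present in 33.1% of those promoters. The motif TATAAA was found once in the Prkcd window and not in that of Prkcz (14.2% of promoters), CCAAT was found at 5 places in Prkcz and at none in Prkcd (37.5%), and TGANTCA was in neither (7.33%), with both strands searched. The GC boxes and CCAAT matches do not overlap each other. The Prkca and Prkce windows held 2 and 1 GC boxes. These matches describe the letters of the windows only, since binding was not measured.

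By the signal of its brightest probe set, Prkcb ranked first, followed by Prkcd, Prkcz, Prkce, Prkch and Prkca. Over all 15 arrays the means were 1243 ± 234 for Prkcb, 258 ± 111 for Prkcd, 239.9 ± 79.9 for Prkcz, 114 ± 40.9 for Prkce, 84.3 ± 19.3 for Prkch and 10.1 ± 5.93 for Prkca (SD). Probe sets differ in how well they bind their target, so this is an order of signals and not of transcript amounts. Whether some of these probes also bind transcripts of related isoforms was not tested. Prkcb was above Prkcd on all 15 arrays, and Prkch above Prkca on all 15. Prkcz was above Prkce on 13 of 15 arrays, 6 of 8 in SNc and 7 of 7 in VTA. Prkce and Prkch lay within their spread of each other, with Prkce higher on 9 of 15. The order of Prkcd and Prkcz depended on the region, since Prkcd was the brighter one on 7 of 8 SNc arrays and on 0 of 7 VTA arrays. The mean signals put Prkcb above 96.1% of all probe sets, Prkcd above 83.5%, Prkcz above 82.5% and Prkca above 18.4%.

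Differences are SNc minus VTA on a log2(signal + 16) scale, from a limma model fitted to the whole table, with its standard error (SE). The offset of 16 makes the differences of dim probe sets smaller. The dimmest 40% of probe sets were left out, at a limit near a signal of 26.3, and 11 of the 14 isoform probe sets passed that filter. The probe set of Prkca, the dimmer one of Prkch and the dimmer one of Prkcz did not, and their differences come from a fit without the filter. Among the 11, 2 lay past an adjusted p of 0.05, both of Prkcd and both higher in SNc, beside 1.98% of the 5244 probe sets tested in either direction and 0.839% higher in SNc. Of these 2, M18330_at averaged 20.7 in VTA, below the limit, and passed the filter only through its SNc signals, with a mean of 115. Of all 104 calls, 42.3% were higher in SNc, and 64.4% of 104 with each array centred on its median. The same 2 were the isoform probe sets in which the regions did not overlap, beside 0.858% of all tested in either direction and 0.42% with SNc the higher. Both counts restate the pattern for which the genes were proposed. The median difference of the 11 was 0.04, with 7 positive and 4 negative, and that of all 5244 was -0.04, with 43.3% positive.

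**Figure D1:**
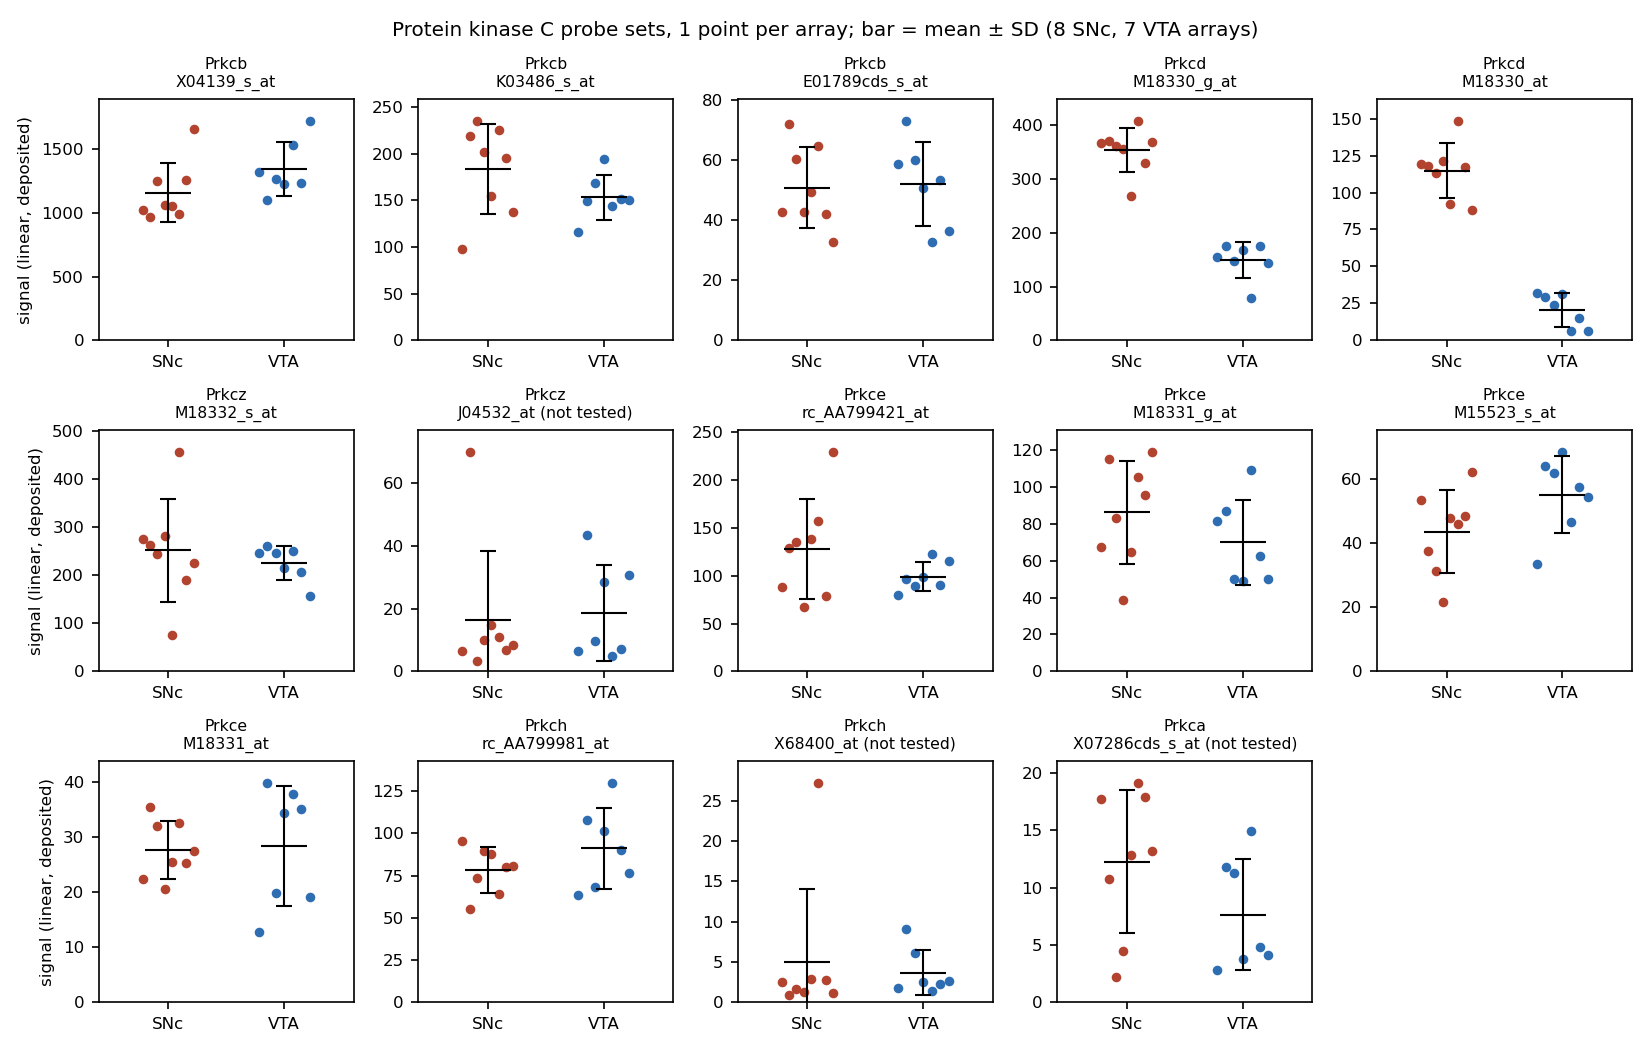
Signal of each of the 14 protein kinase C probe sets (linear scale from 0, 1 panel each), with 1 point per array, SNc left of VTA, and bars for the mean ± SD of 8 SNc and 7 VTA arrays. In both Prkcd panels the lowest SNc point, 267 or 88.3, is above the highest VTA point, 175 or 32.0, and in the other 12 panels the regions overlap.

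Prkcd, the diacylglycerol-dependent delta isoform, was higher in SNc on both of its probe sets. The brighter, M18330_g_at, ran from 267 over a median of 364 to 407 in SNc, and from 79.2 over 155 to 175 in VTA. Every SNc array was above every VTA array. The means were 353 ± 40.8 in SNc and 149 ± 33.3 in VTA (SD, n = 8 and 7), which made 1.18 on the log2 scale (SE 0.15), or 2.27-fold. The dimmer, M18330_at, ran from 88.3 over 118 to 148 in SNc, and from 6.09 over 23.9 to 32.0 in VTA. Again no SNc array overlapped with VTA. Its means were 115 ± 18.6 in SNc and 20.7 ± 11.3 in VTA, which made 1.89 on that scale (SE 0.19). The VTA mean lay below the filter limit of 26.3, so the size of this difference depends on the offset, with 2.64 at an offset of 1 and 1.08 at an offset of 64. The ratio of the mean signals was 5.55 for M18330_at and 2.37 for M18330_g_at. Both probe sets are named for the same sequence record, so they are not independent measures of the gene. In captured tissue, fewer cells that express a gene and less RNA per cell cannot be told apart.

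The lowest SNc value of M18330_g_at was that of SNc 5, at 267, and the lowest VTA value was that of VTA 5, at 79.2. SNc 5 had the highest 3' to 5' ratio of the actin control, which follows RNA integrity, at 15.4 against 6.14 to 12.2 on the other SNc arrays, and VTA 5 had the lowest median correlation with the other arrays, 0.910. The same ratio of the GAPDH control did not single out SNc 5, at 5.02 against 3.31 to 5.05 on the other SNc arrays. It was highest in VTA 8 (6.82) and VTA 5 (5.66). The part of RNA quality in these low values was not tested. Without VTA 5 the difference of M18330_g_at was 1.06, and without SNc 5 it was 1.24. With VTA 5 and VTA 8 both left out, a choice made after the data were seen, it was 1.03, and that of M18330_at was 1.63.

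Of the GABA neuron markers, Gad1 and Pvalb were higher in SNc, as Prkcd was. Of 5 such markers listed, 4 were on the array, and these 2 passed the threshold in the limma fit, beside 0.839% of all probe sets higher in SNc. Gad1, which makes GABA, ran from 469 over 823 to 998 in SNc and from 163 over 198 to 439.8 in VTA (log2 difference 1.45, adjusted p = 0.00154, limma). Pvalb, a calcium buffer of fast-spiking neurons, ran from 102 over 127 to 239 in SNc and from 8.32 over 50.7 to 118 in VTA (log2 difference 1.34, adjusted p = 0.0282, limma). The Pvalb call was lost on leaving out 4 single arrays, SNc 3, SNc 4, VTA 2 and VTA 5, with an adjusted p of up to 0.0573 (limma), and the Gad1 call on leaving out none of the 15. Slc32a1, the vesicular GABA transporter, differed by 0.07 and Gad2, the other GABA-making enzyme, by 0.23, and neither passed. The summed signal of the 4 ran from 909 to 1848 in SNc and from 551 to 1022 in VTA, and none was listed at 0. The part of GABA neurons in the Prkcd difference was not tested.

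**Figure D2:**
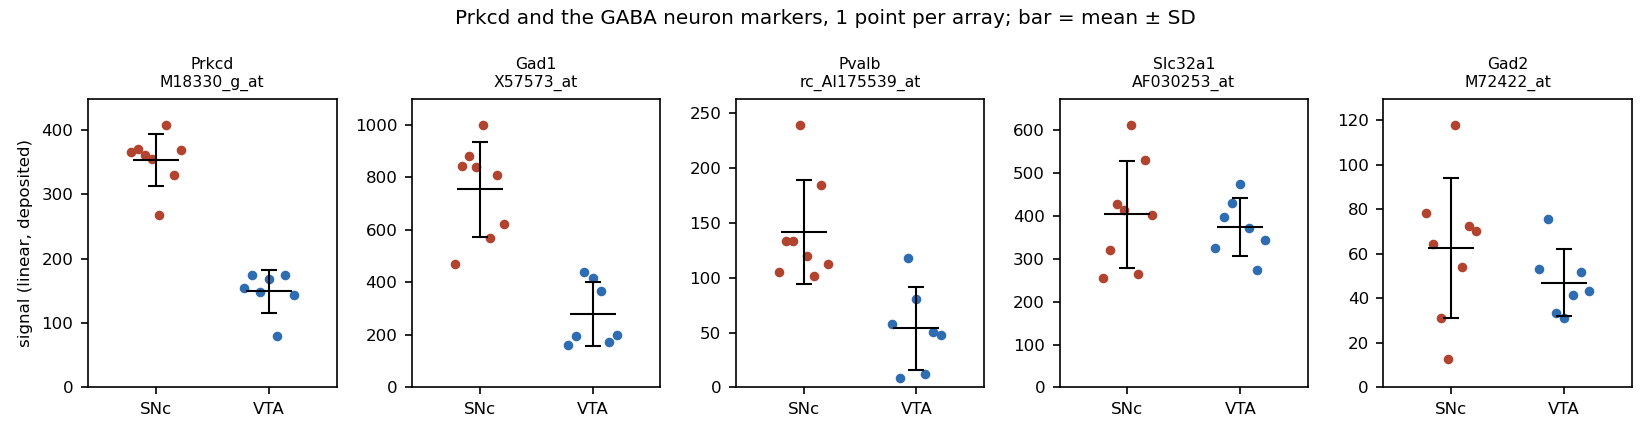
Signal (linear scale from 0) of the brighter Prkcd probe set and of the 4 GABA neuron markers on the array, 1 point per array, SNc left of VTA, with mean ± SD. Prkcd and Gad1 have no SNc point at the level of a VTA point, Pvalb overlaps slightly, and Slc32a1 and Gad2 overlap broadly.

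Both regions had a high summed signal of dopamine neuron genes, of which Pitx3 was the dimmest, at a mean of 130 in SNc and 154 in VTA. All 8 listed (Th, Slc6a3, Slc18a2, Ddc, Nr4a2, Pitx3, Aldh1a1 and Ret) were tested and 0 passed in limma. The 2 with an unadjusted p under 0.05 ran opposite ways, Slc6a3 at 0.34 and Nr4a2 at -0.65. The summed signal of the 8 ran from 26465 to 33613 in SNc and from 22423 to 32231 in VTA. Oligodendrocyte markers were also bright, at a sum of 5512 to 9772 in SNc and 7868 to 11545 in VTA over 6 genes, of which 0 passed and 1 had an unadjusted p under 0.05. The 6 astrocyte markers summed to 1361 to 2160 in SNc and 1538 to 3011 in VTA, the 8 microglia markers to 176 to 324 and 238 to 329.9, and the 6 vessel and blood markers to 258 to 576 and 307 to 1492. Of the genes tested in these 3 lists 0 passed in limma, with 1 at an unadjusted p under 0.05. The 1 glutamate neuron marker on the array, Slc17a7, was below the filter in both regions. The 6 markers of serotonin, noradrenaline and cholinergic neurons summed to 206 to 366 in SNc and 277 to 451 in VTA, with 4 tested and 0 past the threshold or an unadjusted p of 0.05. Most tested markers outside the dopamine and GABA lists were lower in SNc. Differences were positive in 1 of 5 astrocyte, 1 of 6 oligodendrocyte, 0 of 3 microglia and 0 of 5 vessel and blood markers. They were positive in 0 of 4 markers of serotonin, noradrenaline and cholinergic neurons. Beside these stood 4 of 8 dopamine markers, 4 of 4 GABA markers and 44.4% of all genes tested. The part of cell content in these differences was not tested.

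Prkcb, the calcium-dependent beta isoform, was the brightest isoform and overlapped between the regions. Its probe set X04139_s_at ran from 966 over 1057 to 1658 in SNc and from 1100.1 over 1262 to 1718 in VTA. SNc 8 was the highest SNc array and lay above 6 of the 7 VTA arrays. The means were 1157 ± 230.1 in SNc and 1341 ± 212 in VTA, which gave a difference of -0.22 (SE 0.14). The other 2 probe sets were dimmer and did not share that sign or size. K03486_s_at averaged 184 ± 48.5 in SNc and 154 ± 24.1 in VTA (difference 0.20, SE 0.17), with its lowest value of all, 97.6, in SNc 1. E01789cds_s_at averaged 50.8 ± 13.5 in SNc and 52.1 ± 13.96 in VTA (difference -0.03, SE 0.16). Arrays that were high on X04139_s_at tended to be low on E01789cds_s_at, with Pearson's r of -0.66 over the 8 SNc arrays and -0.89 over the 7 VTA arrays, on the log2 scale. These arrays share the deposited scaling, and the correlation is given as a description. Prkca, the other calcium-dependent isoform, had 1 probe set with signals of 2.24 to 19.1 in SNc and 2.83 to 14.9 in VTA. These values lie below the filter limit on every array, and such a low signal does not show that the transcript was absent.

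Prkcz, the atypical zeta isoform, overlapped between the regions. Its brighter probe set, M18332_s_at, ran from 75.8 in SNc 5 over a median of 254 to 457 in SNc 6, against 157 over 246 to 260.1 in VTA. The means were 252 ± 106 in SNc and 226 ± 35.9 in VTA (difference 0.04, SE 0.24, with a 95% interval from -0.47 to 0.55). The difference was 0.25 without SNc 5, and its sign turned without SNc 6 (-0.09) and without VTA 8 (-0.04). It was below 0 in 3 of 25 alternatives. SNc 5 was also the array with the actin ratio of 15.4, though its GAPDH ratio of 5.02 was within the range of the other SNc arrays. The dimmer probe set, J04532_at, averaged 16.4 ± 21.96 in SNc and 18.7 ± 15.4 in VTA, with 70.1 in SNc 2 and 43.6 in VTA 2 as the highest values of each region.

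Prkce, the epsilon isoform, had 4 probe sets, and in all of them the regions overlapped. The brightest, rc_AA799421_at, ran from 67.2 over 132 to 229 in SNc and from 79.8 over 97.0 to 122 in VTA. Its spread was wider in SNc, with means of 128 ± 52.0 in SNc and 98.9 ± 15.02 in VTA (difference 0.25, SE 0.20). Of the others, M18331_g_at gave 86.1 ± 27.8 in SNc and 69.8 ± 23.2 in VTA (0.24, SE 0.20). M18331_at, named for the same sequence record, gave 27.7 ± 5.24 in SNc and 28.4 ± 10.8 in VTA (0.01, SE 0.16). M15523_s_at ran the other way, with 43.5 ± 12.9 in SNc and 55.1 ± 11.9 in VTA (-0.27, SE 0.17). Between pairs of these 4 probe sets, Pearson's r on the log2 scale lay from 0.04 to 0.59 over the 15 arrays, against 0.95 for the 2 probe sets of Prkcd, whose r was 0.61 within SNc and 0.67 within VTA. Prkch, the eta isoform, averaged 78.3 ± 13.4 in SNc and 91.0 ± 23.7 in VTA on rc_AA799981_at (difference -0.17, SE 0.15), and its other probe set averaged 5.04 ± 8.99 in SNc and 3.71 ± 2.83 in VTA.

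**Figure D3:**
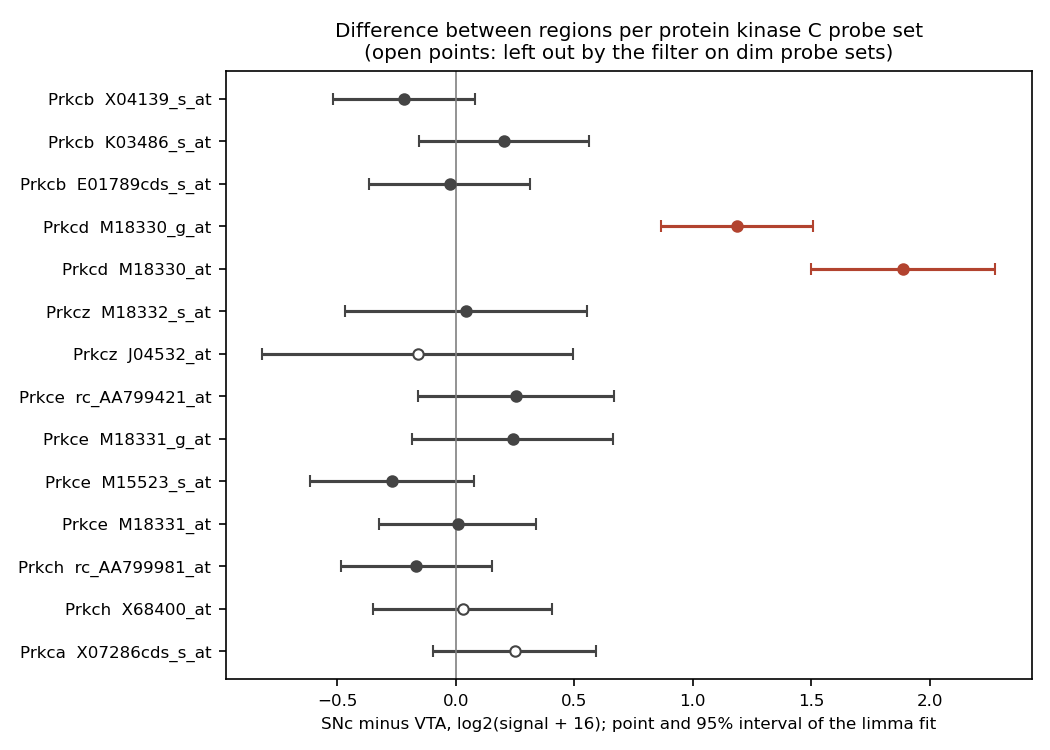
Difference between regions (SNc minus VTA, log2(signal + 16)) of each protein kinase C probe set, with the 95% interval of the limma fit, as a description, and open points for those left out by the filter. The Prkcd intervals run from 0.86 to 1.51 and from 1.498 to 2.28, while each of the other 12 includes 0.

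The interval of every isoform probe set other than those of Prkcd included 0, and a miss of that kind does not show equal levels. For the brightest probe sets the intervals ran from -0.52 to 0.08 for Prkcb, -0.16 to 0.67 for Prkce and -0.48 to 0.15 for Prkch. Ranked by the size of the difference among the 5244 probe sets tested, M18330_at was at place 9 and M18330_g_at at place 39, and the next isoform probe set, M15523_s_at of Prkce, at place 1681. M18330_at was among those tested only through its SNc signals. Quantile normalization and centring each array on its median left the Prkcd differences at 1.20 and 1.28 for M18330_g_at and at 1.96 and 1.98 for M18330_at.

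**Figure D4:**
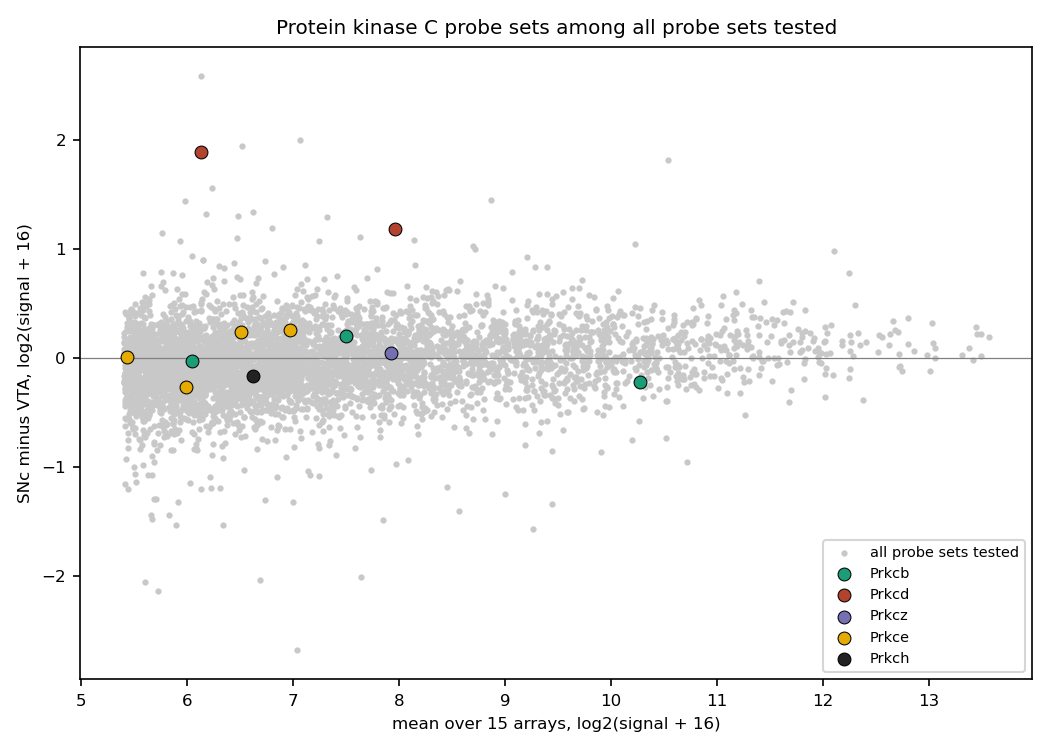
Difference between regions (SNc minus VTA) against mean signal over 15 arrays, both on the log2(signal + 16) scale, for the 5244 probe sets tested in grey and the 11 protein kinase C probe sets in colour. The 2 Prkcd points lie at 1.18 and 1.89, and the other 9 between -0.27 and 0.25.

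The genes whose signal followed Prkcd most closely were named by Pearson's r with M18330_g_at over all 15 arrays, among 3216 genes. They were Asb1, an adaptor of ubiquitin ligases (r = 0.957), Pmepa1, an inhibitor of TGF-beta signalling (0.942), Gucy1b1, a subunit of soluble guanylate cyclase (0.905), Tagln3, a neuronal actin-binding protein (0.900), and Ldhb, a lactate dehydrogenase subunit (0.879). All 5 were higher in SNc on average, so the values over 15 arrays reflect the regions. Asb1, for example, averaged 568 in SNc and 287 in VTA. Within SNc (8 arrays) r was 0.684 for Asb1, 0.425 for Pmepa1 and 0.123 for Ldhb, and within VTA (7 arrays) it was 0.924, 0.646 and 0.433. The 2 arrays farthest from the median of M18330_g_at over all 15 arrays were VTA 5 and VTA 8, both of VTA. Without them, r over the others was 0.925 for Asb1, 0.958 for Pmepa1 and 0.849 to 0.869 for the other 3. Pmepa1 then came first of these 5, and the other genes were not ranked again. The difference between the regions remains in these values. The Spearman rho over all 15 arrays was 0.871 for Asb1.

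For the other isoforms, the 2 closest genes of each were named in the same way. Prkcb was closest to Ampd3, an AMP deaminase (r = 0.840, rho = 0.904), and Cx3cl1, the chemokine fractalkine (0.833, rho = 0.836). Prkch was closest to Tmem79 (0.845) and Gas6, a ligand of TAM receptors (0.83). Prkcz was closest to Fez1, which is known to bind the zeta isoform and was on the list of anchors (0.802), and to Coro1b, an actin regulator (0.794), but these values rest on SNc 5 and SNc 6, without which they were 0.582 and 0.412. Prkce was closest to Plaa (0.729) and to the kinase Stk25 (0.698), the second at 0.463 without SNc 8 and SNc 6. The dim Prkca was closest to the phosphatase Dusp6 (0.734) and the cytokine Il18 (0.730). Each is the highest or the next highest of 3216 values, and the arrays share their scaling, so these are descriptions of likeness alone.

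Around the kinases, genes of the diacylglycerol pathway showed calls in both directions. Of 95 listed genes, 61 were on the array and 39 passed the filter, each represented by its brightest probe set. In limma, 2 of the 39 rose in SNc (Nrgn and Ntsr2), 4 fell in SNc (Tacr3, Marcks, Adra1b and Plcg2) and 33 did not pass, beside 2.2% of the 3221 genes tested in either direction and 1.14% of all probe sets lower in SNc. Because the lists were chosen with earlier results of these data known, these counts describe the choice. They are no evidence that the pathway differs more than other genes. In 4 of the 39 (Nrgn, Ntsr2, Tacr3 and Marcks) the regions did not overlap, beside 0.869% of those genes. The median difference of the 39 was -0.00227, with 19 positive, beside -0.04 over all genes, with 44.4% positive. The count of 6 fell to 3 without SNc 3, VTA 1, VTA 2, VTA 3 or VTA 5, and with an offset of 1.

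Receptors that signal through Gq included calls both ways, with 1 of 11 tested higher in SNc and 2 lower. Tacr3, the neurokinin B receptor, ran from 142 over 226 to 329.0 in SNc and from 460.4 over 512 to 699 in VTA (log2 difference -1.19, SE 0.17, adjusted p = 0.000684, limma). All SNc arrays were below all VTA arrays. Adra1b, an alpha-1 adrenergic receptor, ran from 27.0 over 78.3 to 125 in SNc and from 96.1 over 166 to 213 in VTA (-0.91, SE 0.21, adjusted p = 0.0299, limma). That call was lost without VTA 2, VTA 3, VTA 4 or VTA 6, and with an offset of 1 (adjusted p = 0.0550, limma). Ntsr2, a neurotensin receptor, ran from 289.9 over 351 to 525 in SNc and from 192 over 219.7 to 287 in VTA (0.62, SE 0.15, adjusted p = 0.0428, limma). It missed on leaving out any of 12 single arrays, all but SNc 7, SNc 8 and VTA 8, with an adjusted p of up to 0.0899, and with the replicate number as a block (adjusted p = 0.0663, limma). With an offset of 1 it missed too (adjusted p = 0.0573, limma).

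Of 9 tested genes of G protein subunits and the phospholipase C family 1 passed, and of 4 diacylglycerol kinases 0. Plcg2, a phospholipase C activated by tyrosine kinases, ran from 18.4 over 26.7 to 47.9 in SNc and from 36.8 over 64.7 to 90.04 in VTA (-0.84, SE 0.18, adjusted p = 0.0211, limma). The regions overlapped, and the call was lost without SNc 3, VTA 1 or VTA 5. Plcb4, a phospholipase C that Gq activates, averaged 747 ± 129 in SNc and 543 ± 70.8 in VTA (0.44, SE 0.14) and did not pass (adjusted p = 0.113, limma). It passed with array weights (adjusted p = 0.0288, limma), and over the mean of its 2 probe sets the difference was 0.11. Dgkb, a diacylglycerol kinase of striatal neurons, averaged 82.9 ± 22.4 in SNc and 47.1 ± 26.9 in VTA (0.73, SE 0.24, adjusted p = 0.135, limma), and Dgkz differed by 0.36 (adjusted p = 0.381). Of the 4 kinases, 3 differences were positive and 1 had an unadjusted p under 0.05.

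Substrates of protein kinase C gave 1 call in each direction among 6 tested. Marcks, a membrane and actin-binding protein that the kinases release from the membrane, ran from 66.9 over 159 to 225 in SNc and from 229.7 over 299 to 419 in VTA on its brightest probe set (-1.03, SE 0.22, adjusted p = 0.0166, limma). No SNc array reached the VTA range. Its 3 other tested probe sets gave -0.53, -0.15 and -0.11 and did not pass, and averaging its probe sets gave -0.45 (adjusted p = 0.213, limma). Nrgn, or neurogranin, a calmodulin-binding substrate of dendrites, ran from 381 over 475 to 1276 in SNc and from 159 over 297 to 369 in VTA (1.03, SE 0.24, adjusted p = 0.0322, limma). The regions did not overlap, and SNc 4 held the highest value. Its other probe set differed by 0.50 (adjusted p = 0.0803), and the call was lost without any of 6 single arrays, SNc 3, SNc 6, VTA 1, VTA 2, VTA 3 or VTA 5. The Nrgn call was also lost with an offset of 1 (adjusted p = 0.0522, limma) and with no filter (adjusted p = 0.0527, limma).

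**Figure D5:**
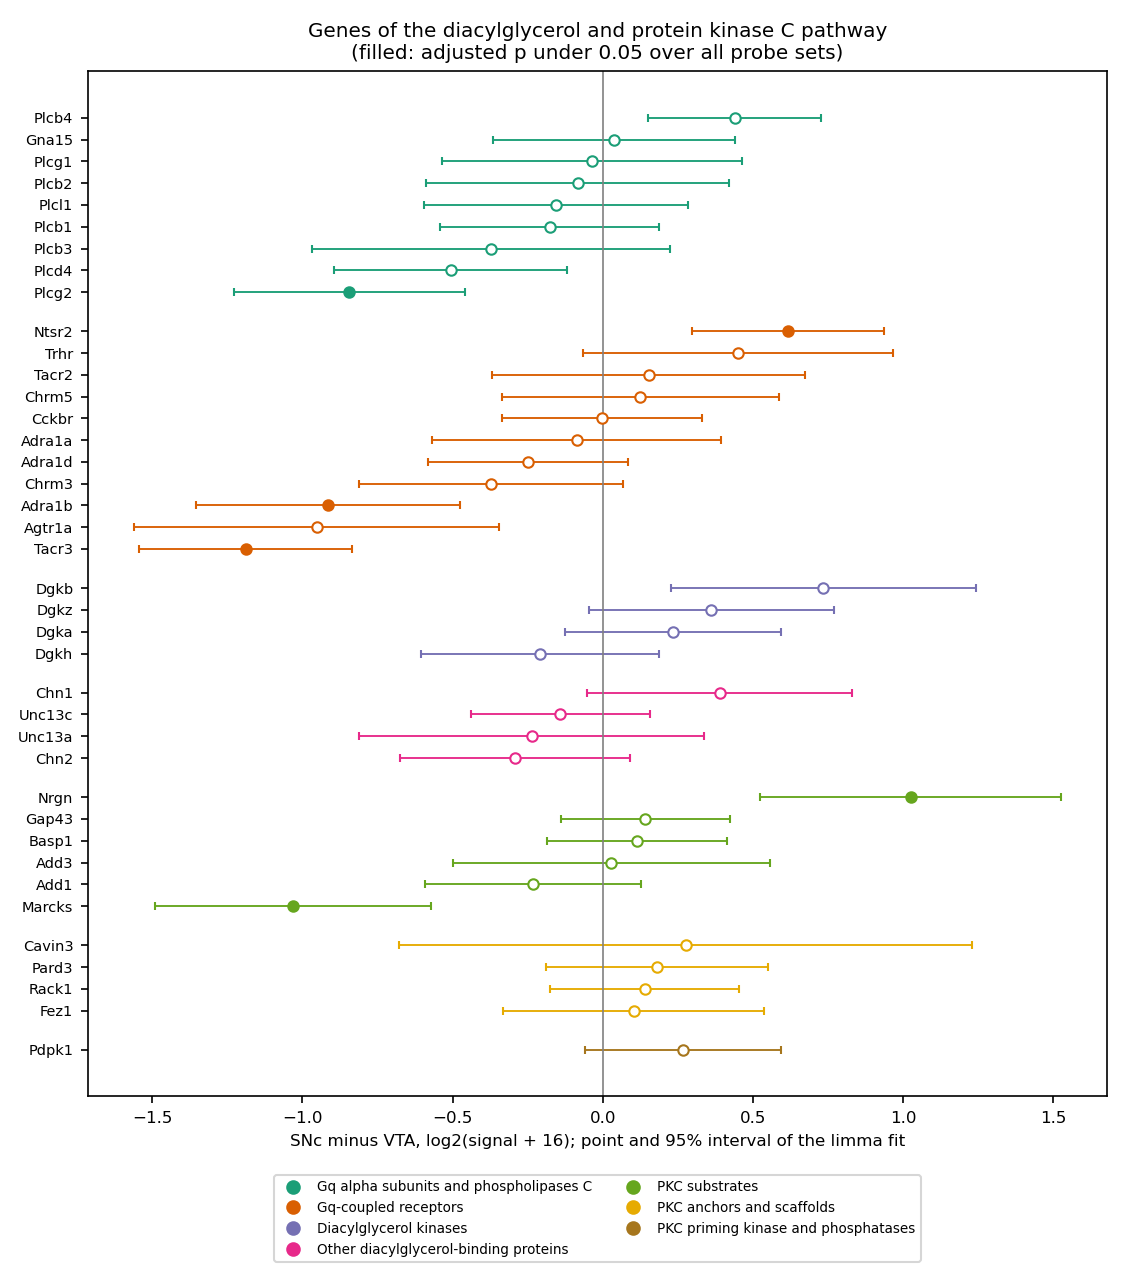
Difference between regions (SNc minus VTA, log2(signal + 16)) with the 95% interval of the limma fit for the 39 pathway genes tested, grouped by role, with filled points for genes past the threshold over all probe sets. The 6 filled points are Plcg2, Ntsr2, Adra1b, Tacr3, Nrgn and Marcks.

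The remaining lists held 0 calls in limma, and none of their tested genes had an unadjusted p under 0.05. Among 4 other diacylglycerol-binding proteins, Chn1, a Rac-inactivating protein, and its relative Chn2 differed by 0.39 and -0.29 (adjusted p = 0.386 and 0.475). All 4 anchors and scaffolds tested had positive differences, among them Pard3, a polarity scaffold, at 0.18 and Rack1, a receptor for activated kinase C, at 0.14 (adjusted p = 0.665 and 0.702). Pdpk1, the kinase that primes protein kinase C for activity, averaged 539 ± 127 in SNc and 436 ± 52.8 in VTA (0.27, SE 0.16, adjusted p = 0.428). The 2 relatives on the array, Prkd3 and Pkn2, averaged 7.75 and 10.8 in SNc and 6.004 and 7.38 in VTA and were too dim to be tested.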

How the data were processed

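The deposited table holds the signal intensity of each probe set on each array, on a linear scale, as the authors gave it. Its software and processing steps were not given in the sources used here. Each array had the same 2% trimmed mean, 150.2, so the intensities had been scaled by the authors before deposit. Arrays were grouped as SNc (8) or VTA (7) by their labels. Depth has no meaning for arrays, whose number limits the precision.

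The 59 control probe sets were left out. Intensities were put on a log2 scale after an offset of 16, the dimmest 40% of probe sets were removed, and regions were compared with limma 3.58.1 (lmFit and eBayes) in R 4.3.3, with Benjamini-Hochberg adjustment over 5244 probe sets and a threshold of 0.05. The procedure was tested on simulated data. The platform annotation gave 1 symbol to 7006 probe sets, several to 308 and none to 1426. A gene was represented by its brightest probe set.

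The members and gene lists were chosen with earlier results of these data known. Text names every isoform probe set, the pathway genes past the threshold and the 2 with the smallest p of each list, and the genes most like each isoform (5 for Prkcd, 2 for the others). Alternatives were offsets of 1 and 64, a filter of 60% or none, scaling by quantiles or by each array's median, a replicate block, another variance estimate, array weights, and leaving out each array.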

Additional observations from a re-analysis of the deposited data

Results flagged for a closer look

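A gap rule for single samples (Dixon's, at the 95% level) was applied to 56 groups of arrays, each 1 probe set in 1 region, and marked 6. Chance alone marks about 1 in 20 groups. Prkcb X04139_s_at was 1658 in SNc 8, with the next SNc array at 1252. Prkcd M18330_g_at was 79.2 in VTA 5, with the next VTA array at 144 and the highest at 175. Prkch X68400_at was 27.2 in SNc 6, with the next SNc array at 2.85. Prkcz J04532_at was 70.1 in SNc 2, with the next SNc array at 14.7. Nrgn L09119_g_at was 1276 in SNc 4, with the next SNc array at 756. Pard3 was 64.8 in VTA 2, with the next VTA array at 35.6.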

How the results depend on the processing

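Over 25 alternatives, Prkcd M18330_g_at ranged from 0.98 to 1.28 and M18330_at from 1.08 to 2.64. Of 350 recomputed isoform differences 3 moved by more than the spread within a region: M18330_at with an offset of 1 (2.64) and of 64 (1.08), and Prkca with an offset of 1 (0.60). The sign was the same in all alternatives for 10 of 14 isoform probe sets and for 14 of 14 named pathway genes. The 2 isoform probe sets past the threshold became 1 under the filter of 60%, which leaves M18330_at out, and stayed at 2 with each array left out. Counts of isoform probe sets in this section restate the choice of the genes, so their steadiness is no evidence for it. The 104 probe sets past it became 59 with an offset of 1 and 184 with array weights, and 56 to 115 with 1 array left out. The 6 pathway genes became 3 with an offset of 1, 8 with array weights and 3 to 7 with 1 array left out. The causes were not tested. Median centring moved the median of all differences by 0.09 and the share of calls higher in SNc from 42.3% to 64.4%, quantile normalization to 49.4%. The labels do not say that a number marks shared animals. The 7 correlations between deviations of same-numbered arrays ran from 0.04 to 0.25, 5 of them over 0.1, and 3 of 7 VTA arrays correlated best with their own number. This is a hint of pairing from the data. Arrays were treated as unpaired because not every correlation was over 0.1, a cutoff that cannot show that they were unpaired. With the replicate number as a block, 99 probe sets, 2 isoform probe sets and 5 pathway genes passed. Leaving out VTA 5 and VTA 8 together, chosen after seeing the data, gave 80, 2 and 5. Signals near the limit of 26.3 give sizes that depend on the offset.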
